A study of Caenorhabditis elegans with 2 samples.

Results

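The genes described here are the 5 members of the eIF4E family of Caenorhabditis elegans, ife-1, ife-2, ife-3, ife-4 and ife-5. They are 5 of 19985 protein-coding genes in the annotation. The family was chosen from measured values, because ife-5 holds a peak of the final list of NFYA-1 ChIP-seq near a transcript start. The final list rests on the agreement of the replicates and holds the strongest nuclear pooled peaks. The choice thus fixes that ife-5 ranks high in the pooled list, and favours, without fixing it, a high rank in each replicate. The values of ife-5 in all 4 lists are therefore given as a description, with no test.

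Whole young adult hermaphrodites were profiled by chromatin immunoprecipitation followed by sequencing (ChIP-seq), and the deposited files are lists of peaks. All worms were of strain OP404, with the genotype unc-119(tm4063) III; wgIs404. This transgene expresses NFYA-1 with a GFP-FLAG tag at its C-terminal end, and chromatin broken by sonication was precipitated with an antibody against GFP. There was 1 group of 2 biological replicates with 1 technical replicate each, and 1 control file, not analysed here, served both. The lists thus describe a tagged transgene product in all tissues of the animal together, with no untagged strain to set beside it here.

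The proteins of the eIF4E family bind the cap at the 5′ end of a messenger RNA. The factor eIF4E itself brings the message to the ribosome through the scaffold eIF4G. Worms have several forms because many of their messages gain a trimethylguanosine cap by trans-splicing, while others keep the usual monomethyl cap. IFE-1, IFE-2 and IFE-5 bind both kinds of cap, and IFE-3 and IFE-4 bind the monomethyl cap. IFE-1 is a germline form that binds the P granule protein PGL-1 and is needed for normal sperm. IFE-5 is another germline form and the closest relative of IFE-1. IFE-2 works mainly in somatic tissue, IFE-3 is needed for viability, and IFE-4 resembles the mammalian 4EHP and acts in neurons and muscle. NFYA-1 is the A subunit of NF-Y, a complex of A, B and C subunits that binds the sequence CCAAT.

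The sequences shown first are those on which the results turn, the peak in the coding exon of ife-5 and the part of ife-1 that aligns with it. Both are on the plus strand of build ce11, read 5′ to 3′, and capitals mark bases that differ from the other gene or have no partner in it. The ife-5 sequence is the whole peak, chrII:12283352-12283641, and the ife-1 sequence is chrIII:13343816-13344113.
ife-5: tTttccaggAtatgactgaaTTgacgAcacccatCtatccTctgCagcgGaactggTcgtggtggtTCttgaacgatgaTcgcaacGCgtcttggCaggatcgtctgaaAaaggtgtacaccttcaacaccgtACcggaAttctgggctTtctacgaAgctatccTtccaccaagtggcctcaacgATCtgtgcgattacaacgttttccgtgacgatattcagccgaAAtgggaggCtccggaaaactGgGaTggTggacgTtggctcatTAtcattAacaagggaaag
ife-1: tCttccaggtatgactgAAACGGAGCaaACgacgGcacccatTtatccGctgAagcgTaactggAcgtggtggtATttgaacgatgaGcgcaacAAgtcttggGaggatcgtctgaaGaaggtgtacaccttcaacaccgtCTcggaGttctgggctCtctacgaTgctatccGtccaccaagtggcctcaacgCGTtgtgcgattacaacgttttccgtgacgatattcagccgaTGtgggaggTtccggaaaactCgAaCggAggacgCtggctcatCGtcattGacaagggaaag

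The third sequence is the pooled peak in the first intron of ife-4, chrX:1104289-1104578 on the plus strand of ce11. It is shown because it is the only pooled peak of the family with CCAAT within 50 bp of its summit, and capitals mark that word.
ife-4: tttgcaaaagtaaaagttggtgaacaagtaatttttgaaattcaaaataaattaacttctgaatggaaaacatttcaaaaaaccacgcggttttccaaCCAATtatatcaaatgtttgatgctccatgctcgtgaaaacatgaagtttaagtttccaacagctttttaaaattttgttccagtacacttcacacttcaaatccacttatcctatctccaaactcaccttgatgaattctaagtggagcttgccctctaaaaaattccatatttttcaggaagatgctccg

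Each deposited peak has a signal value for its strength on a scale that the sources used here do not give. It serves only to rank peaks within a list, with rank 1 the strongest. The pooled list and each replicate list had 30000 peaks, a fixed length that takes in background, so a peak low in these lists is weak evidence of a site. Nuclear signal values had medians of 17.5 in the pooled list, 7.51 in replicate 1 and 11.7 in replicate 2. The final list, thresholded by the authors on the irreproducible discovery rate, had 97 peaks, of which 71 were nuclear. Its lowest nuclear value was 38.6, and the highest nuclear pooled value outside it was 38.5. No read numbers were used, so the depth behind a value is unknown. The 2 samples form 1 group, so conditions could not be compared and no test over samples was run.

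A peak was assigned to a gene when its summit, the position of highest signal, lay in the gene or within 1000 bp upstream of it. Over the 4 lists 23 peaks were assigned to the family. In the pooled list 3 of the 5 genes had at least 1 peak, 60.0%, against 58.7% of all protein-coding genes. Of 9768 genes with windows as long as those of the family, 60.1% had one. The share of ife genes with a pooled peak was thus close to that of genes in general. The 8 pooled peaks were 4 at ife-1, 2 at ife-4 and 2 at ife-5. Over all protein-coding genes the median was 1 per gene and the mean 1.39. Genes with windows as long as those of the family had a median of 1 and a mean of 1.11. At ife-2 and ife-3 every list had 0 peaks. Replicate 1 held 8 assigned peaks, 3 at ife-1, 3 at ife-4 and 2 at ife-5, and replicate 2 held 6, namely 3, 1 and 2. The same 3 genes thus had a peak in each replicate, against 60.3% of all genes in replicate 1 and 59.3% in replicate 2. In the final list 1 of the 5 genes, ife-5, had a peak, against 0.45% of all genes, and this is the value on which the family was chosen.

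**Figure D1:**
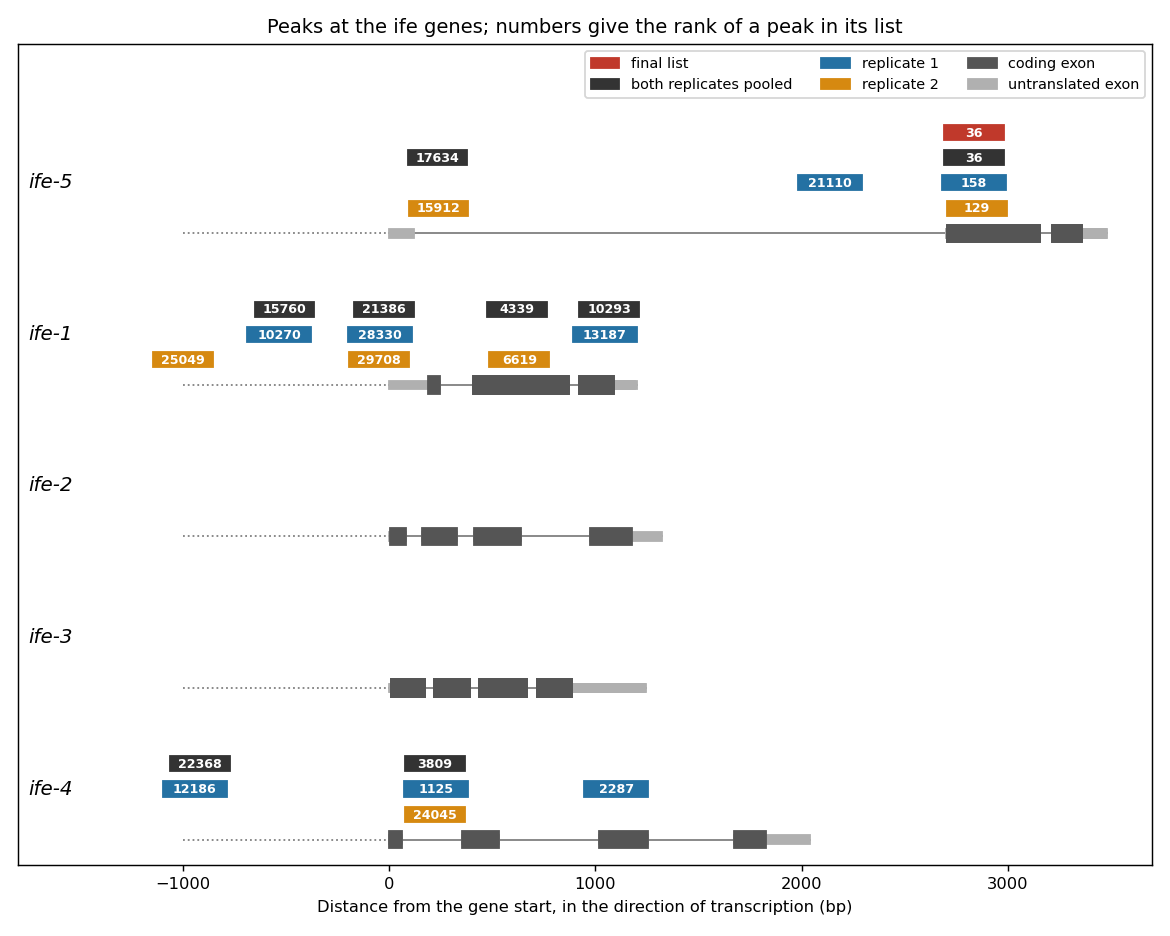
Peaks of the 4 lists at the 5 ife genes, drawn by distance in bp from the gene start in the direction of transcription. Coloured boxes are peaks at their own width with their rank in the list written inside, grey boxes are exons, and dotted lines are the 1000 bp upstream. The ranks of 36, 158 and 129 stand together over the coding exon of ife-5, and the rows of ife-2 and ife-3 are empty.

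The strongest peak of the family lay in ife-5 (WBGene00002063, chrII:12280660-12284139, plus strand). Its summit at 12283497 fell 2837 bp past the gene start, inside a coding exon. Ensembl gives ife-5 a second, shorter transcript, and the summit was 139 bp downstream of its start, which the peak covered. The signal value was 45.2 in the pooled and the final list, 17.0 in replicate 1 and 26.1 in replicate 2. It ranked 36 of 30000 in the pooled list, 158 in replicate 1 and 129 in replicate 2. The peak was therefore in the top 0.527% of replicate 1 and the top 0.43% of replicate 2. The summits of the replicates were 1 bp and 12 bp from the pooled summit. All 26 mitochondrial pooled peaks were stronger, so among nuclear pooled peaks it ranked 10.

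Among the 71 nuclear peaks of the final list, the ife-5 peak came 10 by pooled signal, 18 by the rank of the overlapping peak in replicate 1 and 41 by that in replicate 2. Its ranks among nuclear peaks were 131 in replicate 1 and 102 in replicate 2, and the medians of the 71 were 709 and 71. Its replicate 1 rank was thus higher in the list than that of most final peaks, and its replicate 2 rank lower. Of the 71 peaks, 7 ranked at least as high as the ife-5 peak in both replicates, itself included. Over all genes, 21 protein-coding genes had a pooled peak ranked at least as high, ife-5 included. This is 0.179% of the genes with a peak. The 21 include mitochondrial genes, as 19973 of the 19985 protein-coding genes are nuclear and all mitochondrial pooled peaks were stronger. The nuclear genes among the 21 were not counted apart. In the lists of the older build ce10, 1 pooled peak on chromosome II had the same signal value of 45.2 within 0.01. It ranked 36 in the pooled list and 36 of 66 in the final list of that build. It was matched by chromosome and signal value and not by position.

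The other pooled peak of ife-5 was weak and came from replicate 2. It lay in the first intron at chrII:12280750-12281039, with its summit 235 bp downstream of the gene start. Its signal value was 16.6 in the pooled list, rank 17634, and 11.4 in replicate 2, rank 15912, and no replicate 1 peak overlapped it. Replicate 1 had a peak of its own in the intron, chrII:12282641-12282950, with a signal value of 6.57 and rank 21110. The start of the longer ife-5 transcript thus had no peak of the final list and none that both replicates shared.

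The closest relative, ife-1 (WBGene00002059, chrIII:13343417-13344618, plus strand), had the most pooled peaks and no strong one. Its strongest, chrIII:13343891-13344180, lay in the coding exon that matches the ife-5 peak, with the summit 619 bp downstream of the gene start and 212 bp downstream of the start of its shorter transcript. The signal value was 23.2 in the pooled list, rank 4339, and 14.3 in replicate 2, rank 6619, and replicate 1 had no overlapping peak. The peak further down the gene, chrIII:13344339-13344628, was also in a coding exon, 1067 bp from the gene start. It had 19.3 in the pooled list, rank 10293, and 7.88 in replicate 1, rank 13187, and none in replicate 2. Each coding exon peak of ife-1 thus rested on 1 replicate. Both also lay within 1000 bp upstream of the neighbour acaa-2.

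The pooled peaks ahead of ife-1 lay in the neighbouring gene dro-1. The summit at -506 bp from the ife-1 start was in a coding exon of dro-1 and had 17.2 in the pooled list, rank 15760, and 8.47 in replicate 1, rank 10270. Replicate 2 had no peak over it. The summit at -26 bp was in an untranslated exon of dro-1 and had 15.6 in the pooled list, rank 21386. Its values were 5.71 in replicate 1, rank 28330, and 8.96 in replicate 2, rank 29708. It was shared by both replicates, but near the bottom of each list, where the lowest values were 5.52 and 8.94. A further replicate 2 peak, chrIII:13342272-13342561, had its summit at the edge of the window, inside nud-1, with 9.69 and rank 25049. A replicate 1 peak with 6.94 and rank 18623 overlapped it, with its summit 121 bp away and outside the window of ife-1. By position these 3 upstream peaks could be assigned to the neighbours as well as to ife-1.

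In ife-4 (WBGene00002062, chrX:1104212-1106251, plus strand) the strongest pooled peak lay in the first intron, 222 bp downstream of the gene start. Its signal value was 23.8 in the pooled list, rank 3809. The value was 13.2 in replicate 1, rank 1125, and 9.88 in replicate 2, rank 24045. It was thus found in both replicates at very unequal ranks, within the top 3.75% of one list and the top 80.2% of the other. The replicate 2 summit was at the pooled position and the replicate 1 summit 4 bp away. The other pooled peak, chrX:1103150-1103439, had its summit at -917 bp in an untranslated exon of rme-6, a gene of endocytosis. It had 15.3 in the pooled list, rank 22368, and 8.07 in replicate 1, rank 12186, with none in replicate 2. Replicate 1 had a further peak in a coding exon, chrX:1105159-1105468, with 11.8 and rank 2287, which neither the pooled list nor replicate 2 held.

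**Figure D2:**
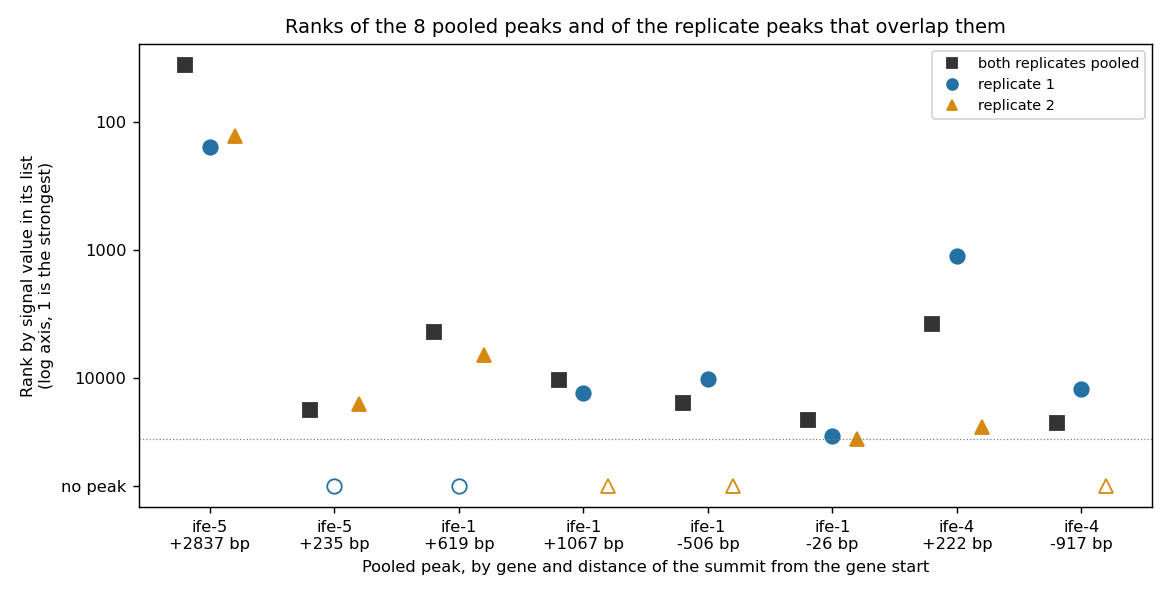
Rank by signal value, on a log axis with the strongest at the top, of the 8 pooled peaks of the family (squares) and of the overlapping peak in replicate 1 (circles) and replicate 2 (triangles). Open symbols mean no overlapping peak, and the dotted line is the list length of 30000. The ife-5 coding exon peak has ranks of 36, 158 and 129, while the next strongest, in the ife-4 intron, has 3809, 1125 and 24045.

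Of the 8 pooled peaks, 3 had an overlapping peak in both replicate lists, against 43.8% of all nuclear pooled peaks. These were the ife-5 coding exon peak, the ife-4 intron peak and the ife-1 peak at -26 bp. Both replicates placed only the first of these in the strongest 15000 of their list. For that stricter cut the share of all nuclear pooled peaks was not computed. The best pooled ranks were 36 at ife-5, 3809 at ife-4 and 4339 at ife-1, against a median of 9066 over all protein-coding genes with a peak. That median was not matched for window length or number of peaks. Of the genes with a peak, 25.6% had a best rank at least as high as that of ife-4, and 28.5% one at least as high as that of ife-1. The order of ife-4 and ife-1 was not the same in the replicates. In replicate 1 the best ranks were 1125 at ife-4 and 10270 at ife-1, and in replicate 2 they were 24045 and 6619. The choice of the family by its final peak fixes the first place of ife-5 in the pooled list. It also favours, without fixing it, the first place of ife-5 in each replicate.

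**Figure D3:**
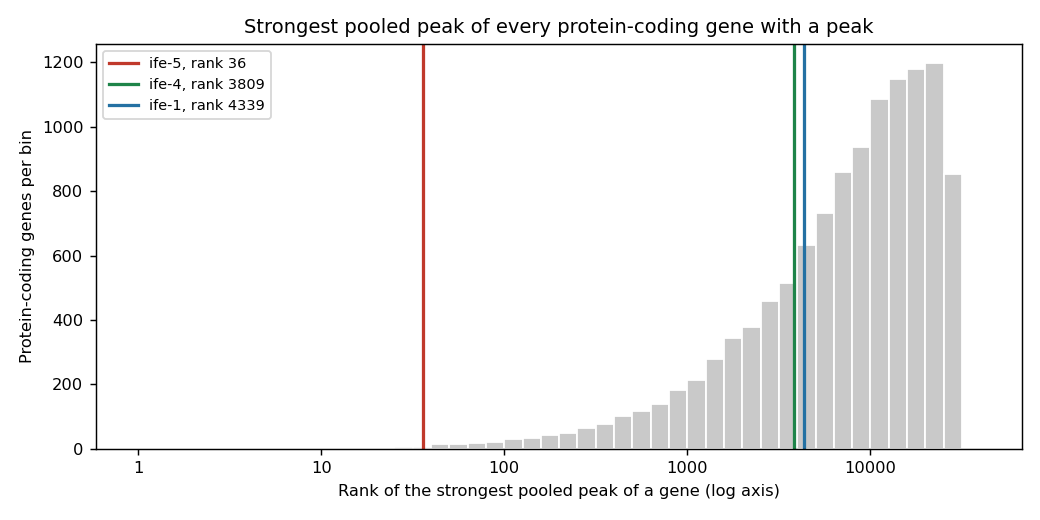
Number of protein-coding genes by the rank of their strongest pooled peak, in bins of equal width on a log axis. Lines mark the ranks of the 3 ife genes that have a peak, and mitochondrial genes are counted too. The line of ife-5, at 36, stands in the far left tail, and those of ife-4, at 3809, and ife-1, at 4339, stand on the rising part of the distribution, ahead of the median of 9066.

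Neither ife-2 nor ife-3 had a summit nearby in any list. The gene ife-2 (WBGene00002060, chrX:381385-382709, minus strand) lies in a stretch of 41336 bp without a pooled summit, which holds 7 genes. The nearest pooled summit was 8485 bp outside ife-2, inside nrde-3, an Argonaute gene of nuclear RNA interference, with rank 12462. The stretch was 30574 bp in replicate 1 and 41706 bp in replicate 2. A pooled summit was as far away or farther for 11.1% of nuclear protein-coding genes. The gene ife-3 (WBGene00002061, chrV:6584-7828, minus strand) lies close to the left end of its chromosome, and no list had a summit between that end and ife-3. The nearest pooled summit was 21239 bp away in egl-8, a phospholipase C gene, with rank 3444, and the nearest in replicate 1 was 20617 bp away. For ife-3 the share of genes as far from a pooled summit or farther was 1.69%.

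Beside the empty windows stands the share of 36-base words of each window that are found once in the genome. This share was 99.4% for the window of ife-2 and 100% for that of ife-3. It was 99.8% at ife-1, 100% at ife-4 and 84.3% at ife-5, the lowest of the family. The part of read placement in the empty windows was not tested, and the sources used here do not give the read length. With words of 25 bases the shares were 98.5% at ife-2, 100% at ife-3 and 75.0% at ife-5, and with words of 50 bases ife-5 had 89.6%.

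CCAAT, the NF-Y box, was sought on both strands, wholly within 50 bp of each summit. It was present at 1 of the 8 pooled peaks, that in the ife-4 intron printed above, against 21.7% of all nuclear pooled peaks. The centre of the word was 45 bp from the pooled summit, near the edge of the window searched. In replicate 1 the summit was 4 bp further on, and there the word was no longer wholly inside the window. No CCAAT lay anywhere in the ife-5 coding exon peak, and the nearest was 318 bp from its summit. At the strongest ife-1 peak the nearest was 251 bp away, and at the ife-1 peak at 1067 bp it was 108 bp away.

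The word was also counted over the whole windows of these genes. The windows of ife-1, ife-2, ife-3, ife-4 and ife-5 held 3, 5, 6, 6 and 5 copies. As the windows differ in length, this was 1.36, 2.15, 2.67, 1.97 and 1.12 copies per kb. The genes without any peak, ife-2 and ife-3, thus had the most per kb, and no background per kb was computed. In the 300 bp around the gene start, from 250 bp before it to 50 bp after it, 1 of the 5 genes held CCAAT, against 45.5% of all protein-coding genes. That gene was ife-3, which had 0 peaks in all 4 lists. A match of these letters is a description of the sequence and does not show a site.

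By location in the ife genes, 3 of the 8 pooled peaks had the summit in a coding exon, 2 in an intron and 3 upstream. With the upstream summit that lies in a coding exon of dro-1, 4 of the 8 were in a coding exon of any gene, against 46.9% of all nuclear pooled peaks, which is close to the background. The coding exon peaks of the ife genes were 1 at ife-5 and 2 at ife-1, and the intron peaks were 1 at ife-5 and 1 at ife-4. In the 101 bp around the summit, these coding exon peaks had GC contents of 50.5% at ife-5 and 55.4% and 51.5% at ife-1. The median of nuclear pooled peaks was 39.6%, and the top decile of that list began at 49.5%. The remaining pooled peaks of the family had from 24.8% to 42.6%. The strongest peaks at ife-5 and at ife-1 were therefore both in the top decile of GC content, whereas the ife-4 intron peak, at 32.7%, was below the median. This background is all nuclear pooled peaks, and coding exon peaks were not set apart in it. The part of GC content in the signal was not tested.

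The ife-5 peak and the strongest ife-1 peak lay in matching exons of closely related genes. Over coding sequences, ife-1 and ife-5 were identical at 514 of 596 aligned bases, 86.2%. The other pairs of the family ranged from 60.6%, for ife-3 and ife-5, to 69.7%, for ife-1 and ife-2. Of the 290 bases of the ife-5 peak, 289 were aligned with ife-1, and 253 of them were identical, 87.5%, leaving 36 that differ. The longest identical run was 39 bp. The printed pair shows that the differences are spread along the peak.

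The position in ife-1 that pairs with the ife-5 summit was 13343969, 67 bp from the summit of the ife-1 peak, and the ife-1 peak covered 223 bp of the matching stretch. Within 25 bp windows the identity ranged from 76.0% to 100%. Of the 25-base words in the ife-5 peak, 251 of 266 occurred once in the genome, 94.4%. With words of 36 bases it was 251 of 255, 98.4%, and with words of 50 bases all 241. The same numbers held for the ife-1 peak. Most words of either peak are therefore found at 1 gene only, and with 50 bases all of them are. These are exact matches, and words that differ at a few bases were not counted. Whether reads of the 2 genes were told apart was thus not tested. On these matching exons the pooled signal was 45.2 at ife-5 and 23.2 at ife-1. Replicate 1 had 17.0 at ife-5 and no peak at ife-1, and replicate 2 had 26.1 and 14.3. That the ife-5 peak was the stronger in the pooled list follows from its choice by the final list, in which ife-1 has no peak. In each replicate the choice favours the same order without fixing it. The sources used here do not give how reads that match both genes were placed.

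**Figure D4:**
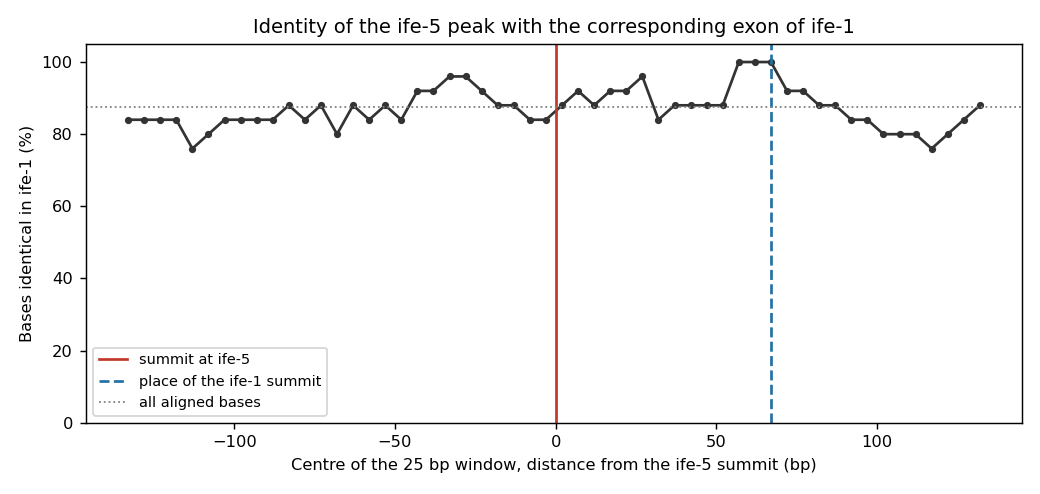
Percentage of bases of the ife-5 peak that are identical in ife-1, in 25 bp windows, by distance in bp of the window centre from the ife-5 summit. The solid vertical line is the ife-5 summit, the dashed line is the place that pairs with the ife-1 summit, 67 bp away, and the dotted horizontal line is the 87.5% over all aligned bases. Identity stays between 76.0% and 100% along the whole peak.

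Genes that work with the ife proteins were described in the same way. Of 18 genes for partners of cap-binding proteins and for cap metabolism, 10 had a pooled peak, 55.6%, against the 58.7% of all genes, and 0 had a peak of the final list, against 0.45% of all genes. The counts were 11 in replicate 1 and 8 in replicate 2. No list had a peak at ifg-1, the eIF4G scaffold to which eIF4E binds, or at ifet-1, the worm 4E-T. The eIF4A helicase gene inf-1 had 1 weak peak, rank 22103. The median of the best pooled rank was 5084.5 over the 10 genes, and the median over all genes with a peak was 9066. The genes were not matched for window length or number of peaks, on which a best rank depends.

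The partner genes ranked at least as high as the best of ife-1 to ife-4 were ncbp-2, gyf-1 and pgl-1. The coding exon peak of ncbp-2, the small subunit of the nuclear cap-binding complex, had a signal value of 29.4 and rank 934, with ranks of 8738 in replicate 1 and 1358 in replicate 2. For gyf-1, a homologue of the 4EHP partner GIGYF, a peak at -108 bp had 28.5 and rank 1154, with 4677 in replicate 1 and 5246 in replicate 2. The peak of pgl-1, whose protein binds IFE-1, lay in a coding exon with 25.5 and rank 2559, with 11859 in replicate 1 and 1258 in replicate 2. All 3 peaks were found in both replicates, and none had CCAAT within 50 bp of the summit.

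Of 24 genes for other initiation factors, 13 had a pooled peak, 54.2%, against 58.7% of all genes, and 0 had a final peak, against 0.45% of all genes. At that share, 0 final peaks in lists of this size is no result about them. Replicate 1 gave 15 and replicate 2 gave 13. The best pooled rank had a median of 6725 over these 13. Those ranked at least as high as the best of ife-1 to ife-4 were iffb-1, which encodes eIF5B, and the eIF3 subunit genes eif-3.G, eif-3.L and eif-3.F. Their best pooled ranks were 1134 at iffb-1, 1793 at eif-3.G, 2127 at eif-3.L and 2236 at eif-3.F. The peaks of the eIF3 genes lay in coding exons and that of iffb-1 at -460 bp from the gene start. CCAAT was within 50 bp of the summit at eif-3.G and eif-3.F. The replicates were unequal here too, with ranks of 23432 in replicate 1 and 1387 in replicate 2 at eif-3.G, and 319 and 15166 at eif-3.L.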

How the data were processed

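Per the labels, ChIP-seq with an antibody against GFP was done on 2 biological replicates of 1 group, on builds ce10 and ce11. The sources used here do not give the aligner, peak caller or read length. Per the descriptions deposited with the files, peaks were called for each replicate and for both pooled, each against 1 control file that the replicates shared, and the authors thresholded the final list on the irreproducible discovery rate. The deposited signal value of each peak, on a scale not given, was used only to rank peaks within a list, with the lowest possible rank for ties. The score that the authors deposited in the column for q-values was partly negative, on a scale not given, and was not used.

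Positions are on ce11, with the WBcel235 sequence of RefSeq and the Ensembl 115 annotation. Printed sequences are credited to RefSeq WBcel235. Peaks of replicates were matched by an overlap of 1 bp or more. Coding sequences (the longest of each gene) were aligned with Biopython 1.88, with 2 for a match, -1 for a mismatch, -4 to open a gap and -0.5 to extend it. Protein identity had been planned and nucleotide identity was used instead. Of the ce10 lists only the pooled and final ones were used, with no position set against genes. The tools were matplotlib 3.10.9, pandas 2.3.3, numpy 2.4.6 and Python 3.11.15. The assignment and word searches were tested on simulated data with known answers.

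The members and lists were chosen with earlier results of these data known. Of 26 listed initiation factor genes, 24 were matched by symbol and 2, iftb-1 and eif-3.M, were left out. All 18 partner genes were matched. Named were all ife genes with every peak, and listed genes with a final peak or a pooled rank as high as the best of ife-1 to ife-4. The genes ifg-1, ifet-1 and inf-1, outside this rule, were named after their values were seen, as were neighbouring genes. Alternatives were other windows, the strongest 15000 peaks, other box distances and words, and each replicate alone.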

Additional observations from a re-analysis of the deposited data

How the results depend on the processing

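Of 34 alternatives, 24 left the value within 1.5 times of the one reported and 10 moved it. With the strongest 15000 peaks of the pooled list, 4 pooled ife peaks were left of 8. This is the same share as the 15000 of 30000 that the setting keeps of all pooled peaks. With the strongest 15000 of each replicate list, 1 of the 8 pooled peaks had support in both replicates in place of 3. The share of all nuclear pooled peaks in this setting was not computed. With CCAAT within 25 bp of the summit the count was 0 in place of 1. Leaving out each replicate in turn gave 0 to 1 peaks with CCAAT, the 0 coming without replicate 2, and best ranks of 129 to 158 at ife-5, 6619 to 10270 at ife-1 and 1125 to 24045 at ife-4. Without replicate 1 the rank of ife-4 was 24045 and without replicate 2 it was 1125. In these settings the list of the other replicate was used alone, with no new pooling. Assigned peaks thus numbered 6 in the list of replicate 2 and 8 in that of replicate 1, the counts already given. Windows of 500 bp and 2000 bp upstream gave 6 and 11 pooled peaks, any overlap of the peak gave 9, and each gave 1 final peak, at ife-5.

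No paired analysis was possible because there was only 1 group. Depth is unknown, so no interval can be given for a signal value or rank. A list of fixed length that takes in background limits what a peak of low rank or an empty window shows.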
